A study of Mus musculus and Rattus norvegicus with 28 samples.

Results

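Regions of accessible chromatin were compared between cells of the mouse left ventricle at postnatal day 7 (P7) and at embryonic day 18.5 (E18.5). The peaks of the 4 ATAC-seq lists, 2 at each time point, were merged wherever they shared at least 1 bp, which gave 57818 regions. A region with a peak in both P7 libraries and in neither E18.5 library was taken as gained at P7, and the opposite pattern as lost. By this rule 14985 regions were gained, 25.9% of all merged regions, and 104 were lost, 0.18%. A further 8928 regions (15.4%) had a peak in all 4 libraries and are called shared. The same rule was applied again to the 13149 best-ranked peaks of every list, because the lists differed in length.

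The study followed mouse cardiomyocytes through the days around birth with ATAC-seq and RNA-seq, and P1 and P3 libraries exist beside those of E18.5 and P7, in pairs of each kind. The E18.5 cells were from late fetal hearts and the P7 cells from pups of both sexes a week after birth, and the labels name no transgene or treatment for either group, while the methods give the mice as wild-type C57BL/6. Left ventricles were digested with trypsin and then collagenase, and the cells that attached to plastic were discarded before 50000 cells were taken for each ATAC-seq library. The methods describe the pairs as biological replicates. The P values for RNA below rest on the spread within such pairs, pooled over the RNA-seq libraries of E18.5, P1, P3 and P7.

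ATAC-seq uses a transposase that inserts sequencing adapters into DNA not covered by nucleosomes, so its peaks mark promoters, enhancers and other places where proteins bind. AP1 is a dimer of JUN and FOS family proteins that binds opened DNA in many cell types, in fibroblasts and after stress among others. MEF2 proteins bind an AT-rich motif near muscle genes and, with GATA4, NKX2-5 and TBX5, drive the genes of the cardiac contractile apparatus. Heart tissue also holds fibroblasts, endothelial cells, smooth muscle cells and pericytes, and each of these cell types opens the promoters of its own genes.

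Sequences are shown for regions away from promoters that were picked for holding the motif compared between the classes further on. The lines give windows from the 4 best-ranked gained regions that lay over 2.5 kb from any transcript start and held the AP1 motif TGACTCA on either strand, with a match on either strand in capitals. They lay in mm10 (GRCm38) at chr2:32680125-32680231, in an intron of Eng, the gene for a TGF beta co-receptor, at chr7:70267165-70267271, in an intron of the long non-coding RNA gene Gm29683, and between genes at chr1:14484612-14484718 and chr16:22734231-22734337. All are read along the plus strand.
Gained, intron of Eng: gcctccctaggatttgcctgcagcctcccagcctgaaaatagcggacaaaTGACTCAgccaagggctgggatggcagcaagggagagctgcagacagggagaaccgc
Gained, intron of Gm29683: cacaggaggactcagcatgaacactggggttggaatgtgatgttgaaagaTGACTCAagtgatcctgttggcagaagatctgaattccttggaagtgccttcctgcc
Gained, nearest to Eya1: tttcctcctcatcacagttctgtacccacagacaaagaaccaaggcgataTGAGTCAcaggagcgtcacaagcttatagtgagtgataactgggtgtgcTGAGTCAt
Gained, nearest to Gm8118: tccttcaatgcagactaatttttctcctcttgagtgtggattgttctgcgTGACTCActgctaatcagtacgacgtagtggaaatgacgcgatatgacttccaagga

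Their fold enrichment over background in P7 replicates 1 and 2 was 7.58 and 7.95 in Eng, 14.99 and 10.8 in Gm29683, 12.2 and 10.8 near Eya1, and 9.65 and 9.01 near Gm8118. The Eya1 window held 2 matches. The nearest transcript starts were 4742 bp away (Fpgs), 17404 bp (Gm29327), 174387 bp (Eya1) and 48110 bp (Gm8118). All 4 regions also had a peak in each of the P1 and P3 libraries.

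The next lines give the 4 best-ranked lost regions away from promoters that held the MEF2 consensus, a 10-base AT-rich motif, with the match in capitals. They lay at chr13:113454728-113454837, in an intron of the long non-coding RNA gene 4921509O07Rik, at chr17:8416902-8417011, in an intron of T2, at chr7:79771831-79771940, in an intron of Wdr93, and between genes at chr15:7857586-7857695.
Lost, intron of 4921509O07Rik: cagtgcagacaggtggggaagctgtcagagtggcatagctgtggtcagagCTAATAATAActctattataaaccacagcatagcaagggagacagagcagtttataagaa
Lost, intron of T2: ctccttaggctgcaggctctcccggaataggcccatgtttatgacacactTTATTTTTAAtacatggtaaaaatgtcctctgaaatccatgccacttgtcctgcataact
Lost, intron of Wdr93: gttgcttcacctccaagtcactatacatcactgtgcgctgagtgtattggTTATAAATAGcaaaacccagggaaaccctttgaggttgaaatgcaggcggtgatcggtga
Lost, nearest to Wdr70: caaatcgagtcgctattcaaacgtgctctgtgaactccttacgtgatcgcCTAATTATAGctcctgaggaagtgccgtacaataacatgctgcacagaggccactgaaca

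These 4 regions had a fold enrichment of 8.69 and 8.48 in E18.5 replicates 1 and 2 in 4921509O07Rik, 7.05 and 6.57 in T2, 6.66 and 8.80 in Wdr93, and 6.76 and 6.18 near Wdr70. All 4 had a peak in P1 replicate 1, but in P1 replicate 2 only those in 4921509O07Rik and T2 had one. In P3 replicate 1 all but the region near Wdr70 had a peak, and in P3 replicate 2 none had. A match is a description of the letters in the window and does not show that a protein was bound there.

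The cells were labelled cardiomyocytes, and the RNA-seq libraries of the same time points were checked against marker lists. The 16 sarcomere genes were detected in every library, but their summed FPKM was 34892 and 44764 at E18.5 and 3373 and 1690 at P7, and all 16 were lower in both P7 libraries than in both E18.5 libraries. The 12 fibroblast genes summed to 492 and 493 at E18.5 and 3039 and 3777 at P7, and all 12 were higher in both P7 libraries. The 11 erythroid genes summed to 29050 and 35397 at E18.5 and 15.0 and 13.7 at P7, where 3 and 4 of them were at 0, whereas the 12 endothelial genes spanned 294 to 555 over the 4 libraries. The smooth muscle and pericyte list was at a summed FPKM of 431 and 560 at E18.5 and 1671 and 1879 at P7, and the macrophage list at 58.6 and 55.8 and then 141 and 122. The members of both lists went in both directions. Of the 10 smooth muscle and pericyte genes, 5 were higher and 4 lower in both P7 libraries, and of the 10 macrophage genes 5 and 5. In such bulk samples fewer cells of a type and less RNA per cell cannot be told apart, and the part of these shifts in the gained and lost regions was not tested.

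Gained regions outnumbered lost ones, and the size of the gap depended on how long the peak lists were. The E18.5 lists held 13149 and 14910 peaks, and the P7 lists 49113 and 35898. What the prefix of the peak names stands for is not given in the sources used here. It was the same in E18.5 replicate 1 and P7 replicate 1, although these 2 lists differed. Set against each other alone, these lists gave 36837 gained and 915 lost regions. The peaks covered 5.39 and 5.27 Mb at E18.5 and 21.1 and 12.9 Mb at P7. Of the gained regions, 63.0% ranked past the 13149th peak in both P7 lists and 11.7% ranked within it in both.

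With equal numbers of peaks, 1810 regions were gained (7.64% of 23691 merged regions) and 1070 lost (4.52%). Of the lost regions at equal numbers, 977 (91.3%) held a P7 peak of lower rank, so that lost here means a lower place in the P7 list and seldom a missing peak. Of the gained ones 57 (3.15%) held a lower-ranked E18.5 peak. These shares follow from the length of the lists and are not compared, since the cut left no peak below it in E18.5 replicate 1 and few in E18.5 replicate 2, but most of both P7 lists. The cut fell at a −log10 q of 1.35 and 3.01 in the E18.5 lists and 12.2 and 8.94 in the P7 lists. The first P7 peaks left out had 12.2 and 8.93, and 68 peaks of E18.5 replicate 2 were tied at the cut.

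**Figure D1:**
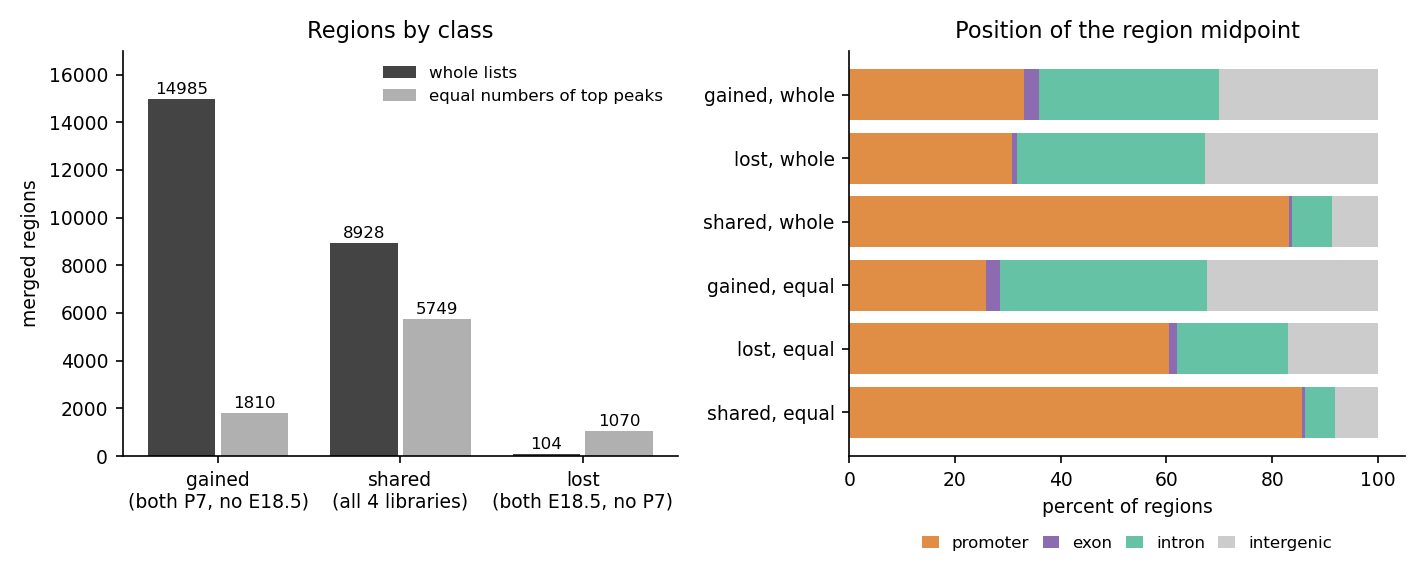
Numbers of gained, lost and shared regions with whole peak lists and with the same number of best-ranked peaks per library; the left panel counts merged regions on a linear axis and the right panel gives the position of region midpoints in percent. Gained regions fell from 14985 to 1810 and lost regions rose from 104 to 1070 when every list was held to 13149 peaks.

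Libraries of one time point were not more alike than libraries of different time points in every pairing. At equal numbers, 68.5% of the E18.5 replicate 1 regions were also in E18.5 replicate 2 and 68.7% were in P7 replicate 2. Of the P7 replicate 2 regions, 67.0% were in P7 replicate 1 and 67.5% in E18.5 replicate 1, whereas 55.6% of the P7 replicate 1 regions were in E18.5 replicate 1. The counts moved with single libraries in turn: without P7 replicate 2 the gained regions numbered 34579 with whole lists and 5119 at equal numbers, and without P7 replicate 1 they numbered 3467 at equal numbers. The lost regions of the whole lists numbered 2461 and 522 without E18.5 replicates 1 and 2, and 253 and 304 without P7 replicates 1 and 2. At equal numbers the order turned without E18.5 replicate 1 (2564 gained, 4115 lost) and without E18.5 replicate 2 (2259 gained, 3231 lost), where a single E18.5 list had to hold the peak. Without P7 replicate 2 the lost regions at equal numbers were 2638. No test of these counts was made, since an exact two-sided permutation test of 2 against 2 libraries cannot give a P below 0.333.

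Gained regions lay mostly away from promoters, in introns and between genes. Their midpoint was within 2.5 kb of a transcript start in 33.0% (Wilson 95% interval 32.2 to 33.7, counting error only), against 83.1% of shared regions and 40.3% of all merged regions. Introns held 34.0% of gained regions, intergenic sequence 30.1% and exons 2.86%. Gained regions had a median width of 409 bp, against 756 bp for shared regions and 349 bp for all merged regions. A shared region joins peaks of all 4 lists. The median GC content of gained regions was 52.2%, against 65.2% of shared and 53.2% of all merged regions. Their median distance to the nearest transcript start was 6.67 kb.

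The lost regions of the whole lists resembled the gained ones in position, and the lost regions at equal numbers did not. Promoters held 32 of the 104 (30.8%, Wilson 95% interval 22.7 to 40.2), introns 35.6% and intergenic sequence 32.7%. This share was 12.1% without E18.5 replicate 1 and 49.3% without P7 replicate 2. At equal numbers, promoters held 60.5% of lost regions (57.5 to 63.4) and 25.8% of gained regions (23.8 to 27.9), against 55.7% of all. In median fold enrichment the gained regions were at 4.83 and 4.15 in the P7 libraries, below the shared regions at 6.39 and 6.31.

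The AP1 motif was frequent in gained regions and rare in lost regions, and the MEF2 consensus showed the opposite order. Within 100 bp of the midpoint, the AP1 motif was found in 27.9% of 10021 gained regions away from promoters (Wilson 95% interval 26.98 to 28.7). It was found in 5 of 72 lost regions away from promoters (6.94%, 3.00 to 15.2), in 18.1% of shared regions and in 21.6% of all such merged regions. Promoters held it less often, 13.0% of gained promoter regions. Over promoters and other regions together the AP1 motif was in 22.9% of gained and 16.2% of all merged regions.

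The MEF2 consensus was in 10 of the 72 lost regions (13.9%, Wilson 95% interval 7.72 to 23.7), in 1.92% of gained regions, in 3.71% of shared regions and in 2.63% of all merged regions away from promoters. The pentamer CCAAT, bound by NFY, was in 31.9% of lost (22.3 to 43.4), 20.3% of gained and 20.5% of all such regions, but at equal numbers in 20.1% of lost and 21.7% of all. The motif GATAAG, bound by GATA factors, was in 15.3% of lost, 7.18% of gained and 8.42% of all such regions, while CATTCC, bound by TEAD factors, was in 27.8%, 21.8% and 20.9%. The ETS motif CCGGAA was in 8.33%, 3.76% and 4.55%, and the E-box CAGCTG in 19.4%, 18.4% and 17.5%. Matches on either strand were counted, and a match of one motif may share bases with a match of another. Of the 10 best-ranked gained regions away from promoters 8 held AP1 and 0 held MEF2, and of the 10 best-ranked lost ones 1 held AP1 and 4 held MEF2.

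With equal numbers of peaks the AP1 share of gained regions away from promoters was 38.7% (36.2 to 41.4) and that of lost regions 12.5%, against 22.5% of all. The MEF2 share was 9.46% of 423 lost regions (7.02 to 12.6) and 1.42% of gained regions, against 3.16% of all. The order was therefore the same with both sets of lists, but the lost regions depended on their few members. Over all 104 lost regions the MEF2 share was 13.5%, and it was 3.39%, 7.09% and 8.22% without E18.5 replicate 1, E18.5 replicate 2 and P7 replicate 2.

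**Figure D2:**
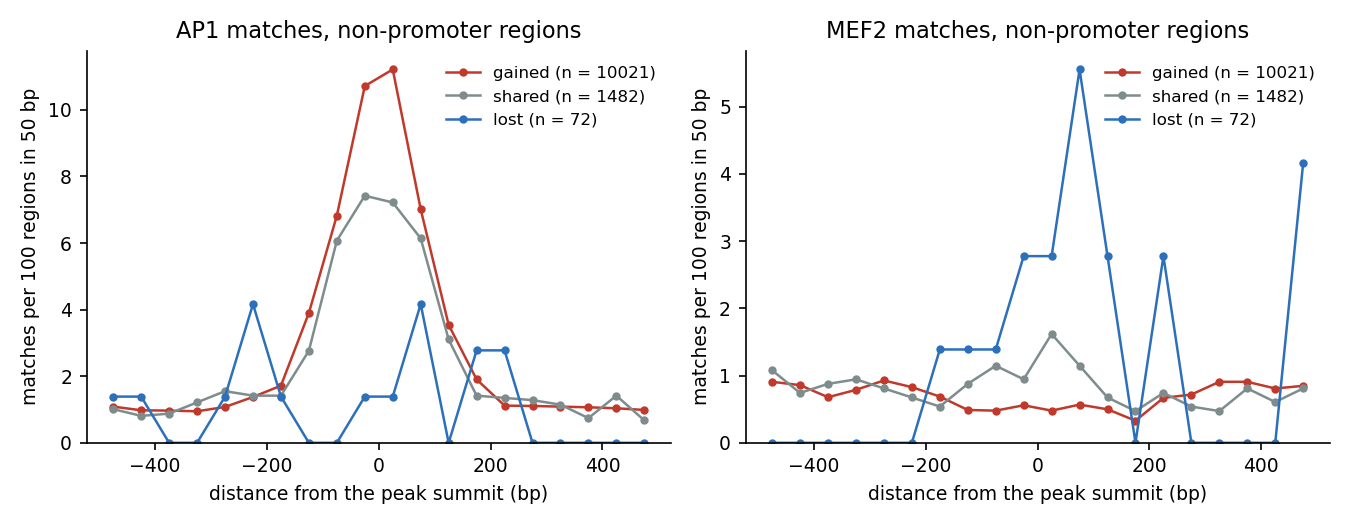
Matches of the AP1 motif and of the MEF2 consensus per 100 regions by distance from the peak summit in bp, in bins of 50 bp, for gained, lost and shared regions away from promoters. AP1 matches in gained regions reached 10.72 and 11.22 per 100 regions in the bins beside the summit, and MEF2 matches in lost regions reached 5.56.

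AP1 matches in gained regions were concentrated at the summit, the position of highest signal within the peak. The bins on both sides of the summit held 10.72 and 11.22 matches per 100 gained regions, and those of shared regions 7.42 and 7.22. MEF2 matches in lost regions reached 5.56 per 100 regions, in a bin that with 72 regions rests on few matches.

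The libraries of P1 and P3, which the rule did not use, were searched for peaks in the gained and lost regions. Presence in a list also follows the length of the list, so these shares do not date the opening of a region. Of the gained regions, 41.0% and 9.98% had a peak in P1 replicates 1 and 2, and 98.9% and 91.9% in P3 replicates 1 and 2. Over all merged regions the shares were 36.7%, 17.5%, 88.8% and 73.0%. The 2 P1 libraries thus lay far apart, and the P3 lists were the longest of the series with 95257 and 52040 peaks. Among the 104 lost regions, 46.2% and 16.3% had a peak at P1 and 54.8% and 18.3% at P3, below the shares of all merged regions in 3 of the 4 libraries and above it in P1 replicate 1.

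Genes were then joined to the regions by promoter, and the RNA-seq, a readout the rule did not use, was compared between P7 and E18.5 with limma. A gained promoter region was assigned to every gene with a transcript start within 2.5 kb, and 970 of the 4939 gained promoter regions were near starts of more than 1 gene. In all 5369 genes (9.68% of the 55450 in the files) had a gained promoter region, and 33 (0.0595%) a lost one. RNA of 3142 of the 5369 and 17 of the 33 (22.5% and 0.122% of all genes tested) passed the filter of at least 1 FPKM in at least 2 libraries, so 2227 and 16 were not tested. At equal numbers of peaks, 548 genes (0.988%) had a gained promoter region and 832 (1.5%) a lost one. Genes were called at an adjusted P below 0.05 with a log2 fold change beyond 1 in size.

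Genes with a gained promoter region were more often higher in RNA at P7, and the few with a lost one more often lower. Of the 3142 tested genes with a gained promoter region, 726 (23.1%) were called higher and 325 (10.3%) lower, against 15.4% and 12.3% of all 13979 genes tested. Of the 1578 genes that had no E18.5 peak at any of their promoters, 28.5% were higher and 8.81% lower, with a median log2 fold change of 0.41. For the 1564 genes whose gained region lay beside a promoter peak of E18.5 these shares were 17.7% and 11.9%, with a median of 0.14. At equal numbers of peaks, 308 tested genes (2.2%) had a gained promoter region, of which 91 (29.5%) were higher and 5.84% lower.

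Of the 17 tested genes with a lost promoter region, 7 (41.2%) were called lower and 0 higher, with a median log2 fold change of −0.72. Of the 585 tested genes (4.18%) with a promoter region lost at equal numbers, 116 (19.8%) were lower and 12.5% higher. Genes with a shared promoter region and neither a gained nor a lost one were higher in 11.9% and lower in 10.4%. The scaling of the libraries moved the balance of all calls: 2155 genes were higher and 1715 lower (55.7% higher), 3477 and 1816 with TPM (65.7% higher), and 1861 and 1934 with median-of-ratios size factors (49.0% higher). The median log2 fold change of all tested genes was 0.145, 0.35 and 0.04 with these scalings, so single changes are best read relative to that shift.

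**Figure D3:**
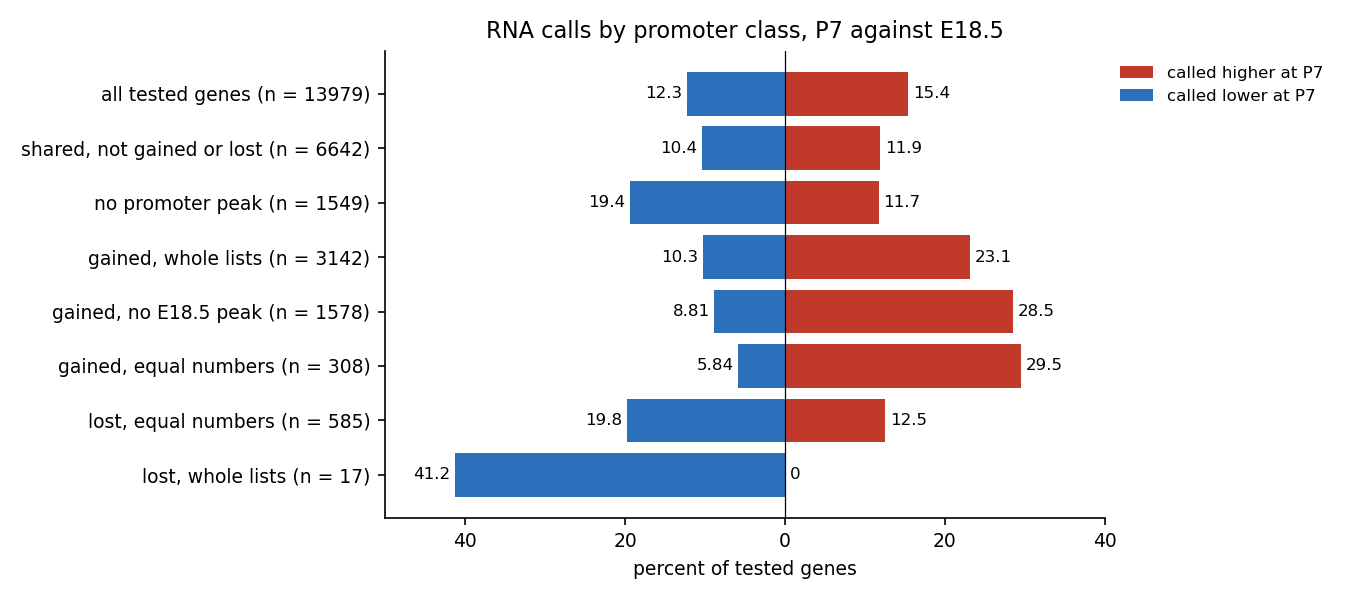
Share of tested genes called higher or lower in RNA at P7 against E18.5, in percent, by the class of their promoter regions, with all tested genes for reference. Genes with a gained promoter region were higher in 23.1% and those with a lost one lower in 41.2%, against 15.4% and 12.3% of all tested genes.

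For gained regions the shares lay close together at every distance. When each gained region was joined to the nearest gene that passed the RNA filter, skipping nearer genes that did not, 23.9% of the genes joined within 2.5 kb were higher, 21.5% between 2.5 and 20 kb, 23.8% between 20 and 50 kb and 21.0% beyond 50 kb. Shared regions joined in this way gave 13.2%, 16.9%, 17.1% and 17.3%, and 15.4% of all genes tested were higher. For lost regions joined in the same way, 7 of 17 genes within 2.5 kb were lower, against 3 of 27, 2 of 14 and 9 of 46 in the bins farther away, a difference that was not tested. Among all genes tested 12.3% were lower. A gene can be joined to several regions, and the share of genes called higher was 11.0% with no gained region joined to it, 16.3% with 1, 17.9% with 2, 26.7% with 3 to 4, 31.9% with 5 to 9 and 28.8% of the 52 genes with 10 or more.

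With all genes of the files counted, also those below the RNA filter, the 5 genes that were nearest to the most gained regions were long, and 4 of them were not called in RNA. Tns1, which encodes the focal adhesion protein tensin 1, had 13, the transcription factor gene Foxp1 12, and Frmd4a, Mbnl2 and Prkag2 10 each. These genes span 214, 597, 596, 156 and 238 kb. Prkag2, a regulatory subunit of AMP-activated protein kinase, fell from 23.0 and 25.3 FPKM to 11.2 and 9.08 (log2 fold change −1.18), a call that was lost with TPM, and the other 4 were between 0.06 and 0.68 in log2 fold change and not called.

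Promoters of fibroblast and extracellular matrix genes were among the gained regions of the whole lists, and RNA of most of these genes rose. A gained promoter region was found for 7 of the 12 fibroblast genes and 11 of the 23 matrix genes, against 22.5% of all tested genes. At equal numbers 1 gene of each list was gained, Dpt and Thbs2, and 1 of each was lost, Pdgfra and Col5a1. In the fibroblast list, a promoter peak was present for 3 and 1 genes in the E18.5 libraries and for 11 and 10 in the P7 libraries. The part of the longer P7 peak lists in these counts was not tested. RNA was higher for 10 of the 12, with a median log2 fold change of 2.65, and for 22 of the 23 matrix genes, with a median of 2.37, and lower for 0 in both lists. Among all genes tested 15.4% were higher and 12.3% lower. The fibroblast genes are also the marker list whose summed FPKM was higher in both P7 libraries, and its part in the peaks was not tested.

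Dcn, the matrix proteoglycan decorin, had a gained promoter region with a fold enrichment of 4.32 and 3.37 in the P7 libraries. Its RNA was at 85.5 and 84.5 FPKM at E18.5 and 626 and 617 at P7 (log2 fold change 2.85 ± 0.10 SE). Col1a1, a chain of type I collagen, went from 70.6 and 67.1 to 719.8 and 917 FPKM, and its gained region lay 2468 bp from the nearest start, while a nearer region had a peak in 1 library of each time point. Tcf21, a transcription factor of epicardium-derived fibroblasts, had a region at 4.21 and 5.23 in fold enrichment and RNA at 7.28 and 9.33 FPKM at E18.5 against 70.1 and 59.8 at P7. In all 3 genes both P7 libraries were far above both E18.5 libraries.

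Timp1, an inhibitor of matrix metalloproteinases, had a gained region 54 bp from a start with a fold enrichment of 4.99 and 4.3. Its RNA rose from 24.3 and 18.1 to 417 and 492 FPKM. Lox, which crosslinks collagen, had 2 gained promoter regions and rose from 5.29 and 5.30 to 126 and 163 FPKM. Postn, a matricellular protein of activated fibroblasts, had fold enrichments of 6.38 and 5.07 and a smaller rise, from 100.1 and 102 to 240.3 and 361 FPKM. For Pdgfra, a receptor that marks fibroblasts, and Col5a1, a chain of type V collagen, a promoter region was lost at equal numbers, and their RNA rose by log2 fold changes of 4.32 and 2.59.

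Smooth muscle and pericyte promoters had no peak at E18.5 in either library and a peak for 8 and 6 of the 10 genes at P7. The P7 peak lists were also the longer ones, and the part of list length in these counts was not tested. Gained regions were assigned to Acta2, Tagln, Myh11, Pdgfrb and Kcnj8, 5 of the 10 genes against 22.5% of all tested genes, and to 0 genes of the list at equal numbers. Tagln, an actin-binding protein of smooth muscle, had a region 26 bp from its start with a fold enrichment of 4.35 and 4.58, and its RNA rose from 15.6 and 18.9 to 411 and 436 FPKM (log2 fold change 4.55). Acta2, smooth muscle actin, had RNA at 352 and 480.1 FPKM at E18.5 without a promoter peak and at 1161 and 1326 at P7. RNA of Kcnj8, a potassium channel subunit of pericytes, was at 2.62 and 2.21 FPKM at E18.5 against 3.21 and 2.26 at P7 and was not called. Of the whole list 5 genes were higher and 3 lower, against 15.4% and 12.3% of all genes tested.

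**Figure D4:**
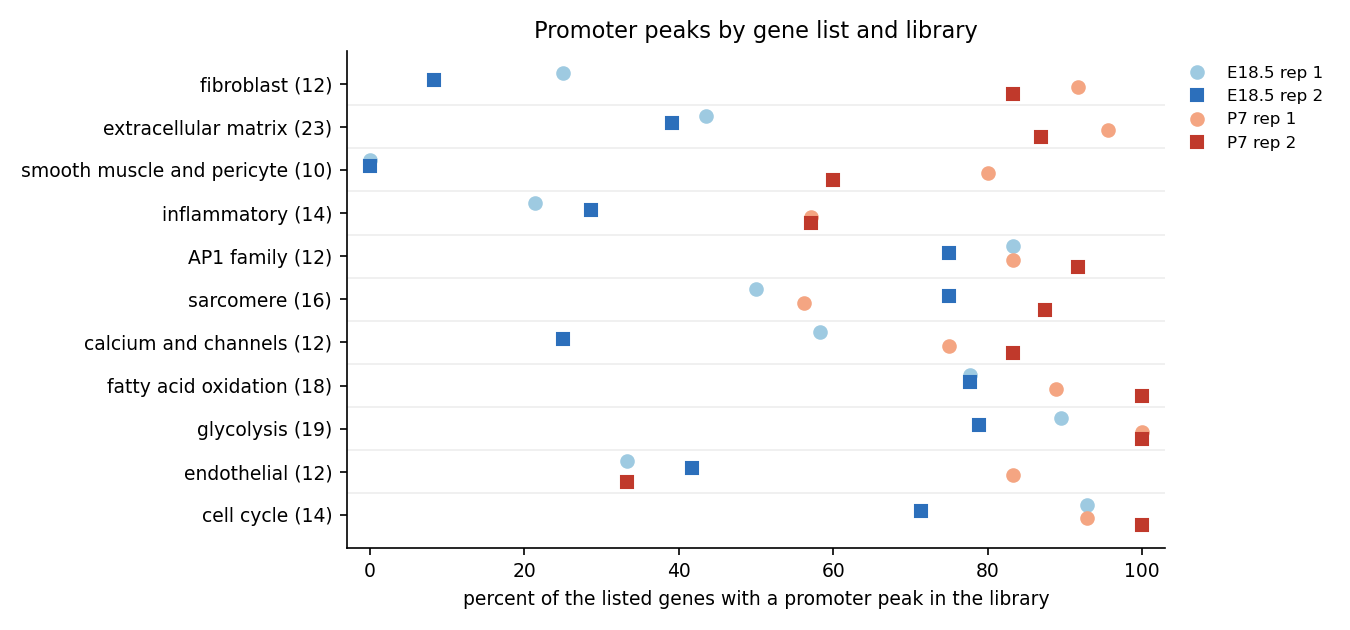
Share of the genes of each list with a promoter peak, in percent, with 1 point for each of the 4 ATAC-seq libraries and list sizes in brackets. The fibroblast list went from 3 and 1 of 12 genes at E18.5 to 11 and 10 at P7, and the smooth muscle and pericyte list from 0 and 0 of 10 to 8 and 6. Whole peak lists were used, which were longer at P7.

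Of the 14 inflammatory genes 8 were higher in RNA and 1 lower, against 15.4% and 12.3% of all genes tested. Gained promoter regions were found for 5, Ccl2, Ccl7, Il6, Ptgs2 and Nfkbia, against 22.5% of all tested genes, and for 0 at equal numbers. The chemokine genes Ccl2 and Ccl7, which attract monocytes, rose from 267 and 217 to 1735 and 2010 FPKM and from 79.5 and 77.9 to 914 and 1121 FPKM. Il6, a cytokine gene, had a gained region at its start with a fold enrichment of 5.89 and 5.16 and rose from 3.39 and 4.63 to 38.8 and 53.6 FPKM. Ptgs2 and Nfkbia were not called, with log2 fold changes of 0.60 and −0.29.

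Epicardial promoters were gained for Wt1, Upk1b, Aldh1a2 and Tbx18, 4 of 10 genes against 22.5% of all tested genes, and at equal numbers for Wt1 alone. Aldh1a2, which makes retinoic acid, had a region 59 bp from a start with a fold enrichment of 5.06 and 5.68, and its RNA rose from 5.71 and 7.65 to 149 and 200.1 FPKM. Wt1 and Tbx18, transcription factor genes of the epicardium, were not called, with log2 fold changes of 0.77 and 0.72. The macrophage list had 2 gained promoters of 10, a share below that of all tested genes. None of its promoters had a peak at E18.5 and 3 and 2 had one in the P7 libraries, while 7 had none in any of the 4 libraries.

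RNA of the AP1 genes themselves fell more often than it rose. Gained promoter regions were assigned to Jun, Fosb, Fosl1, Fosl2 and Mafk, 5 of 12 genes of the AP1 list, against 22.5% of all tested genes. Each lay beside a peak that at least 1 E18.5 library already had. At equal numbers a promoter region of Jun and of Fosb was gained and one of Fos lost. RNA was lower for 5 of the 12 and higher for 1, against 12.3% and 15.4% of all genes tested. Jun fell from 111 and 202 to 35.97 and 39.8 FPKM, and Fosb from 41.5 and 65.4 to 1.04 and 1.40. Fos, Atf3 and Mafk fell by 4.17, 3.75 and 1.71 on the log2 scale, and Junb was at 169 and 193 against 164 and 198 FPKM. Fosl1 was the gene called higher, from 14.9 and 8.82 to 28.1 and 26.0 FPKM (log2 fold change 1.17, limma adjusted P = 0.0301), a call that did not hold without E18.5 replicate 2 (adjusted P = 0.177) or without P7 replicate 1 or 2 (0.1004 and 0.0782).

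The immediate early genes, which cells switch on within minutes of a stimulus such as dissociation, had a promoter peak in nearly every library, for 13 and 12 of 13 genes at E18.5 and for all 13 at P7. Gained regions beside those peaks were assigned to 4 of the 13 genes, against 22.5% of all tested genes. RNA was lower at P7 for 7 and higher for 0, against 12.3% and 15.4% of all genes tested.

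RNA of all 16 sarcomere genes fell, against 12.3% of all genes tested. With whole lists none had a lost promoter region, against 0.122% of all tested genes, and 3 had a gained one, against 22.5%. A promoter peak was present for 8 and 12 of the 16 in the E18.5 libraries and for 9 and 14 at P7, and at equal numbers regions of Tnnt2, Myl2, Actc1, Actn2 and Ttn, 5 of the 16, were lost, against 4.18% of all tested genes. The median log2 fold change of the list was −4.26.

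The promoter region of Tnnt2, cardiac troponin T, had a peak in all 4 libraries with a fold enrichment of 5.71 and 4.27 at E18.5 and 3.80 and 3.53 at P7. Its RNA went from 6141 and 7172 to 710.1 and 329.7 FPKM. Myl2, the ventricular regulatory myosin light chain, had a fold enrichment of 4.85 and 5.16 at E18.5, no peak in P7 replicate 1 and 3.39 in P7 replicate 2. Its promoter region held a MEF2 match, and its RNA fell from 5267 and 6835 to 198 and 79.0 FPKM. Of Actn2 and Ttn, the Z-disc protein alpha-actinin 2 and the giant protein titin, 1 promoter region likewise had no peak in P7 replicate 1 and a fold enrichment of 3.13 and 3.16 in P7 replicate 2, after 6.88 and 5.30 and 6.60 and 4.37 at E18.5. A second region of Actn2, 88 bp from a start, was at 4.29 and 6.12 at P7, and a second of Ttn, 10 bp from a start, at 5.59 in P7 replicate 2.

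Gained regions were assigned to some muscle genes whose RNA fell. Tnni1, the troponin I form of fetal heart and slow muscle, had a gained region with a fold enrichment of 3.79 and 4.07 while its RNA went from 1456 and 1832 to 28.5 and 12.7 FPKM. Nexn, which encodes the Z-disc protein nexilin, had one at 4.88 and 4.89 while its RNA went from 129 and 125 to 28.4 and 21.6 FPKM. Tnni3, the adult cardiac troponin I, had a gained region 2315 bp from its nearest start, and its RNA fell by 4.26 on the log2 scale.

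Cardiac transcription factor genes had a median log2 fold change of −0.80. Of the 12 genes 3 had a gained promoter region, near the 22.5% of all tested genes, 5 of 11 tested fell and 0 rose. In the list of MEF2 and class IIa HDAC genes 3 of 8 had one, and 4 of 7 tested fell. Among all genes tested 12.3% were lower and 15.4% higher. Mef2c fell from 4.12 and 4.16 to 0.852 and 1.04 FPKM and had gained regions beside peaks of 1 E18.5 library. Hdac5, a class IIa deacetylase that represses MEF2, fell from 47.0 and 55.6 to 18.5 and 17.2 FPKM. Mef2a had a log2 fold change of −0.90 and was not called.

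In fatty acid oxidation, the main fuel supply of the adult heart, 3 of 18 genes had a gained promoter region (Cpt1a, Slc25a20 and Fabp3), below the 22.5% of all tested genes, 15 fell in RNA and 1, Cpt1a, rose. Fabp3, the heart fatty acid binding protein, fell from 1217 and 1474 to 83.8 and 33.7 FPKM although a gained region lay at its promoter. Regions of Cpt1b, the muscle form of the carnitine transferase, and of Ppargc1a were lost at equal numbers. In glycolysis 8 of 19 genes had a gained promoter region, and 1 at equal numbers, 2 rose and 7 fell, while none of the 14 cell cycle genes had a gained region and 4 rose. The calls of the cell cycle genes Aurkb, Cdk1 and Mcm5 did not hold with median-of-ratios size factors. In the TGF beta and YAP list 2 of 13 genes (Smad3 and Smad7) had a gained promoter region and 3 rose, and in the list of the fetal gene program 2 of 10 had one, with 1 of 9 tested genes higher and 6 lower. Beside these lists, 22.5% of all tested genes had a gained promoter region, 15.4% were higher and 12.3% lower.

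The largest rises in RNA among genes with a gained promoter region were S100a4, Ccn5, Col8a1, Tmem45a and Hsd11b1. S100a4, a calcium-binding protein abundant in fibroblasts and leukocytes, went from 2.19 and 2.07 FPKM to 563 and 581 (log2 fold change 7.52 ± 0.26 SE, limma adjusted P = 2.93e-06). Its region had a modest fold enrichment of 3.57 and 2.90. Ccn5, a matricellular protein, went from 0.0827 and 0.153 to 97.7 and 135 FPKM, and Tmem45a, a transmembrane protein gene, from 0.886 and 0.812 to 69.0 and 92.8. Peak strength and RNA were thus not ordered alike in these genes, since Tmem45a had fold enrichments of 8.20 and 8.20.

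The largest falls among genes with a gained promoter region were Ckm, Tnni1, Fabp3, Fosb and Tnnt1, of which 4 are muscle genes. Ckm, the muscle creatine kinase, went from 1215 and 1566 FPKM to 6.89 and 1.498 (log2 fold change −8.28 ± 0.50 SE, limma adjusted P = 1.48e-05) with a gained region at 4.26 and 4.27 in fold enrichment. All these values are on the log2(FPKM + 1) scale, which understates changes of low genes.

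**Figure D5:**
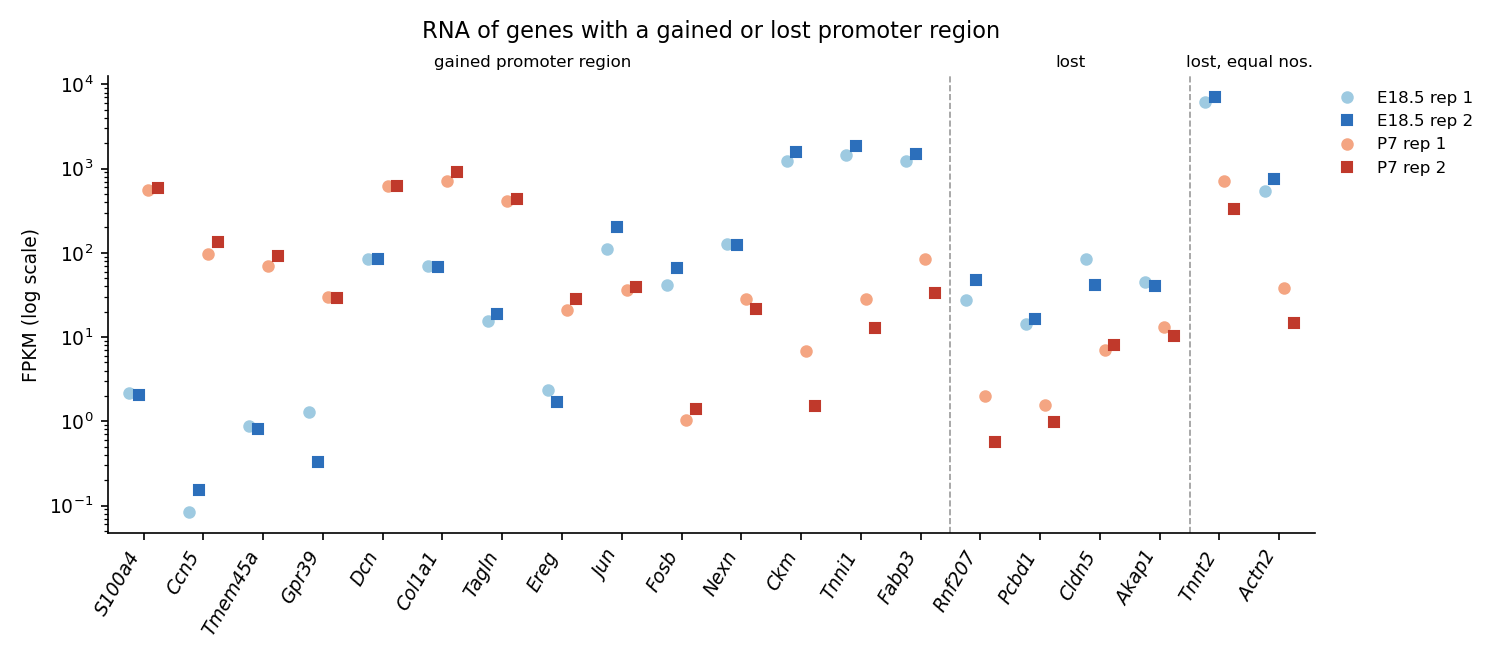
RNA of named genes with a promoter region that was gained, lost, or lost at equal numbers in the 2 E18.5 and 2 P7 libraries, as FPKM on a log axis, 1 point per library. S100a4 went from 2.19 and 2.07 to 563 and 581 FPKM and Ckm from 1215 and 1566 to 6.89 and 1.498, both with a gained promoter region.

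The gained promoter regions with the best ranks in both P7 lists were not those of the fibroblast list. The first was near Asb5, a gene for an ankyrin repeat and SOCS box protein, with a fold enrichment of 15.2 and 10.002 at 1795 bp from its start, and RNA of Asb5 rose from 0.580 and 1.41 to 9.02 and 9.10 FPKM. It was followed by Exoc6b and Heatr5a, at 11.2 and 10.1 and at 10.7 and 9.18. Further down were Gucy1b1, a subunit of the nitric oxide receptor guanylyl cyclase, and Gpr39, a zinc-sensing receptor, whose RNA rose from 4.91 and 6.57 to 17.1 and 19.2 FPKM and from 1.29 and 0.327 to 29.9 and 29.2 FPKM. Away from promoters, a region 55099 bp from Slit3, a guidance ligand gene, had fold enrichments of 10.3 and 10.5, and RNA of Slit3 rose from 2.89 and 2.59 to 15.7 and 16.8 FPKM.

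All 10 of the best-ranked gained promoter regions and all 10 of the best-ranked gained regions elsewhere had a peak in both P3 libraries. This is near the share of all gained regions, 98.9% and 91.9% in P3 replicates 1 and 2. Of the genes the study names beside mouse data, Dcn, Ereg, Irs2, Gstm1 and Nexn had a gained promoter region. For Dcn this differs from the paper, which counts it among genes not expressed in cardiomyocytes and calls its promoter inaccessible in them. Ereg, an EGF receptor ligand, also gained its region at equal numbers (fold enrichment 6.44 and 5.38) and rose from 2.35 and 1.71 to 20.7 and 28.1 FPKM. Gstm1, a glutathione transferase, rose from 45.3 and 52.7 to 108 and 130 FPKM, and Irs2, an adaptor of the insulin receptor, was at 8.98 and 14.6 against 5.82 and 5.79 FPKM and not called. Pfkm, the muscle phosphofructokinase, kept a shared promoter region, with fold enrichments of 9.24 and 6.01 at E18.5 and 4.83 and 6.54 at P7, while its RNA fell from 101 and 139 to 15.51 and 12.9 FPKM.

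The 7 genes with a lost promoter region and lower RNA were Rnf207, Pcbd1, Cldn5, Akap1, Fry, Rec8 and Khdc4. A lost region was not always a lost promoter: of the 17 tested genes 13 still had a P7 peak at another promoter region, of which 4 were lower, against 3 of the 4 that had none. Rnf207 and Fry had a gained promoter region as well. The count was 6 whichever RNA-seq library was left out, and Rec8, named after its values were seen, was not called without E18.5 replicate 2, without P7 replicate 2 or without the filter on low values. Rnf207, a RING finger protein of heart muscle, had fold enrichments of 3.78 and 6.56 at E18.5 and a MEF2 match, and its RNA fell from 27.7 and 48.2 to 1.995 and 0.563 FPKM (log2 fold change −4.12 ± 0.46 SE, limma adjusted P = 0.000168). Pcbd1, which recycles the cofactor tetrahydrobiopterin, fell from 14.2 and 16.6 to 1.58 and 0.988 FPKM, with its lost region 59 bp from a start. Akap1, which anchors protein kinase A at mitochondria, fell from 45.2 and 39.9 to 13.0 and 10.2 FPKM, and its lost region also held a MEF2 match.

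Cldn5, an endothelial tight junction protein, was the single member of the endothelial list with a lost promoter region, at 5.36 and 4.47 in fold enrichment. Its RNA fell from 85.2 and 41.1 to 7.10 and 8.14 FPKM. The other endothelial promoters did not follow it: a promoter peak was present for 4 and 5 of the 12 genes at E18.5 and for 10 and 4 at P7, none was gained by the rule, and Pecam1 was at 77.8 and 41.9 against 55.6 and 47.8 FPKM. Khdc4, an RNA-binding protein gene, was close to the limit at a log2 fold change of −1.02, and its call did not hold with TPM or without E18.5 replicate 1 or P7 replicate 1 (−0.79, −0.92 and −0.93). Among the lost promoter genes that were not called, Lamb1, a laminin chain, was higher at P7 by a log2 fold change of 0.91.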

How the data were processed

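ATAC-seq peak lists and RNA-seq tables were used as deposited. Per the study's methods, the authors trimmed ATAC-seq reads, aligned them with Bowtie2 to mm10, removed duplicates and blacklisted regions, and called narrow peaks in each library with MACS2. The deposited peak lists give a fold enrichment ratio and a −log10 q for each peak, without reads, so ATAC-seq depth is unknown and no peak was tested. For RNA-seq the authors used HISAT2 2.1.0 and StringTie 1.3.5, and the deposited files hold FPKM, TPM and coverage per transcript. Depth worked out from coverage and FPKM, for reads of 150 bases, was similar between libraries, with a median coverage per FPKM of 4.4 to 5.63.

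FPKM was summed per gene. All 8 RNA-seq libraries entered 1 fit (limma 3.58.1, trend, two-sided, Benjamini-Hochberg adjustment) on log2(FPKM + 1), after a filter of at least 1 FPKM in at least 2 libraries. The fit was tested on simulated data. Wilson intervals cover counting error only. Motifs were searched in GRCm38, on 21 chromosomes, which left out 153 regions. Named genes were those the study names, the nearest genes of the 10 best-ranked regions of each class, the 5 largest rises and falls among genes with a gained or lost promoter, list members, and the 5 genes with the most gained regions. Alternatives covered list cuts, promoter limits, motif windows, scaling, filters and each library left out. The members and lists were chosen with earlier results of these data known.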

Additional observations from a re-analysis of the deposited data

How the results depend on the processing

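Counts of regions moved with every list cut, and RNA calls with the scaling: with TPM 3477 genes were higher in place of 2155, and 1030 in place of 726 of those with a gained promoter. The upper 0.5 of each list gave 7127 gained and 45 lost regions, equal numbers by fold enrichment 2144 and 1386, and 0.5 of the shortest list 632 and 601. Lost regions numbered 54 with a −log10 q of at least 5 and 284 with 200 bp around summits. With a library left out, gained regions ranged from 17059 to 34579 and lost regions from 253 to 2461, and at equal numbers from 2259 to 5119 and from 1481 to 4115. The promoter share of gained regions was 24.5% with a limit of 1 kb, 22.0% with transcripts of expressed genes, 25.8% at equal numbers and 29.1% to 38.4% with a library left out, and that of lost regions 19.2%, 16.3%, 60.5% and 12.1% to 49.3%. Genes with a gained promoter called higher numbered 91 with regions at equal numbers, 449 without an E18.5 promoter peak and 669 to 772 with a library left out. Genes with a lost promoter called lower numbered 7 with whole lists and 116 with regions at equal numbers. They numbered 3 without a P7 promoter peak and 6 whichever RNA-seq library was left out. The AP1 share of gained regions was 31.5% within 200 bp, 34.4% at equal numbers, 27.9% away from promoters and 20.5% to 22.1% with a library left out, and the MEF2 share of lost regions 5.71% at equal numbers and 3.39% to 9.88% with a library left out. A class that rests on a single library at a time point takes in more regions by construction.

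The replicate numbers gave no sign of pairing the RNA-seq samples. Deviations of same-numbered libraries from the mean of their time point correlated at −0.0964 to 0.171 between time points. For the ATAC-seq lists pairing was not tested. With a replicate block, 729 genes with a gained promoter were called higher and 7 with a lost promoter lower. Same-numbered peak lists set against each other gave 36837 gained and 915 lost regions in pair 1 and 23203 and 3006 in pair 2, and both pairs together 14985 and 104.

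Of 174 named genes called in RNA, 145 kept their call under every alternative run, 29 lost it under at least 1, and 0 reversed. The unknown ATAC-seq depth limits every count of gained and lost regions.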

Other observations

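Shared regions, which had a peak in all 4 libraries, were ranked among themselves in each list and changed place in both directions. Of the 8928 shared regions, 1658 (18.6%) had both P7 ranks better than both E18.5 ranks and 1846 (20.7%) had both worse. Rank shifts of over 2000 places were found for 898 regions upward and 920 downward. Away from promoters, the AP1 motif was in 25.0% of the former and 14.6% of the latter, and the MEF2 consensus in 0.417% and 7.3%, against 18.1% and 3.71% of all shared regions. These ranks come from the same peaks as the gained and lost classes and add no separate evidence.

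Genes with a shared promoter region that moved up by over 2000 places were higher in RNA in 18.5% and lower in 8.12% of 653 tested, and those with a region that moved down were higher in 11.1% and lower in 13.3% of 751 tested, against 15.4% and 12.3% of all genes tested. The difference between the 2 sets was not tested.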
